A study of Mus musculus with 4 samples.

Results

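The 10 genes described here encode integrin subunits that are found on stromal cells, the supporting cells of an organ: Itga1, Itga2, Itga3, Itga5, Itga6, Itga8, Itga11, Itgav, Itgb1 and Itgb3. They were chosen by name, 10 of the 56748 genes in the count table, and each was matched by its Ensembl identifier. These genes and the gene lists below were picked with earlier results of these data known. Their counts beside shares of all genes are therefore a description only. All 10 had a mean of at least 1 CPM (read counts scaled to a common library total) over the 4 libraries, as did 14365 genes in all, and none was lost to that limit. RNA came from cultures grown out of collagenase-digested prostates of male C57BL/6 mice of 8 to 10 weeks, labelled as fibroblasts. The 4 libraries, 1 each, are labelled PBS (a buffered saline), BuOE, PBS and radiation, and BuOE and radiation. Irradiated animals received 37.5 Gy to the shielded pelvis, in fractions of 7.5 Gy over 5 days at 1.2 Gy per minute. BuOE stands in the chemical name of BMX-001, the manganese porphyrin named in the series title. The labels give neither its dose nor its timing, do not say whether animals or cultures received it, and do not say how many animals went into a culture.

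Integrins are receptors by which cells hold on to the matrix around them. Each is a pair of an alpha and a beta subunit: the alpha subunit largely sets which ligand is bound, and the tail of the beta subunit connects to actin through talin, kindlin and other adapters. Fibroblasts use them to grip collagen and fibronectin, to sense stiffness and to pull active TGF-beta out of its latent complex, which is why they are studied in fibrosis. Itgb1 encodes the partner of all 8 alpha subunits described here. The partner encoded by Itgb3 pairs with the product of Itgav.

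With 1 library per condition, each ratio below compares 2 libraries and carries no test between conditions. Ratios are log2 ratios of CPM scaled by TMM, a method that assumes most genes unchanged, followed by a 95% interval for counting error alone. The deposited counts summed to between 24996835 and 35915448 reads per library. Ratios for radiation in the PBS arm and for BuOE without radiation share the PBS library, so they are given side by side and not correlated. The libraries were not of 1 cell type: 10 fibroblast markers summed to between 5805 and 8691 CPM, and 11 epithelial markers (keratins, Epcam, Cdh1 and others) to between 4393 and 6897 CPM. Itga2, Itga3 and Itga6 are also known from epithelial cells, so the stromal label of the genes could not be checked cell by cell. In bulk RNA, more cells of one type and more RNA per cell cannot be told apart.

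To show the DNA in front of the 2 members with the widest range and of the member lowest for BuOE, the 200 bases from 250 to 51 before the RefSeq start are given for the collagen receptor genes Itga11 and Itga1 and for the fibronectin receptor gene Itga5. Coordinates are those of GRCm38.p6, and the sequence is read 5′ to 3′ along the gene's strand. Capitals mark motif letters found by search on both strands.
Itga11, chr9:62677605-62677804, plus strand: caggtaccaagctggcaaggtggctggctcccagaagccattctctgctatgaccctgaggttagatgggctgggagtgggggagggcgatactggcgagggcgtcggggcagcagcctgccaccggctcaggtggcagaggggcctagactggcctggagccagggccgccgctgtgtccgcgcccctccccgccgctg
Itga1, chr13:115102015-115102214, minus strand: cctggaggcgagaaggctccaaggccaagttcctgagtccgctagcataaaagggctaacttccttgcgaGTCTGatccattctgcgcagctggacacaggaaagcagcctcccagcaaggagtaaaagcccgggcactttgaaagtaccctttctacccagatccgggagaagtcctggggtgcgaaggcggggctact
Itga5, chr15:103366842-103367041, minus strand: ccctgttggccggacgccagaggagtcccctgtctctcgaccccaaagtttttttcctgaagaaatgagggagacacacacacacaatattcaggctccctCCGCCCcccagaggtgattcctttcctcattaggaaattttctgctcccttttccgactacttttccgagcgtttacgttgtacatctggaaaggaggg
The search took GGGCGG as the GC box and, for the factors of the AP-1 family, the letters TGANTCA. For the TEAD factors of the YAP pathway it took GGAATG, for the SMAD factors of the TGF-beta pathway CAGAC, and as the TATA box TATAAA. The Itga5 window held 1 GC box, the Itga1 window held 1 match to the SMAD letters, and the Itga11 window held none of the 5. Of 32851 windows of this length in the table, 24.6% held a GC box, 35.8% the SMAD letters, 5.57% the AP-1 letters, 10.7% the TEAD letters and 9.14% a TATA box. The table matched 8 of the 10 members, all but Itga6 and Itgb3, with 9 windows because Itga3 has a second start. No member window held the AP-1, TEAD or TATA letters, 4 held a GC box and 4 the SMAD letters. G and C made up 69.5% of the Itga11 window, 57.0% of the Itga1 window and 51.5% of the Itga5 window, against a median of 51.5% over all windows.

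The order of the members was compared per kilobase of exon, since long transcripts collect more reads. Itgb1, the common beta subunit, stood highest in every library, at 336 CPM per kilobase with PBS, 319 with BuOE, 391 with PBS and radiation and 367 with BuOE and radiation. Itga5, which encodes the classical fibronectin receptor subunit, came second in every library, at 205, 129, 186 and 122 CPM per kilobase in the same order. Both lay above every other member in each of the 4 libraries. Itga3 (mean 60.5 CPM per kilobase) and Itgav (60.2) followed, then Itga2 (35.1), Itga6 (31.7) and Itgb3 (31.0). The range of Itga3 over the libraries (31.0 to 90.8) overlapped that of Itgav and also those of Itga2, Itga6 and Itgb3. Ranges of Itga2, Itga6 and Itgb3 overlapped each other as well. Itga11 (3.08), Itga1 (2.36) and Itga8 (0.905) lay far below the rest in all 4 libraries, and the ranges of Itga11, Itga1 and Itga8 overlapped each other. With the longest coding transcript as the length, Itgb1, Itga5, Itgb3 and Itga8 held their ranks and the other 6 members moved by 1 place.

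**Figure D1:**
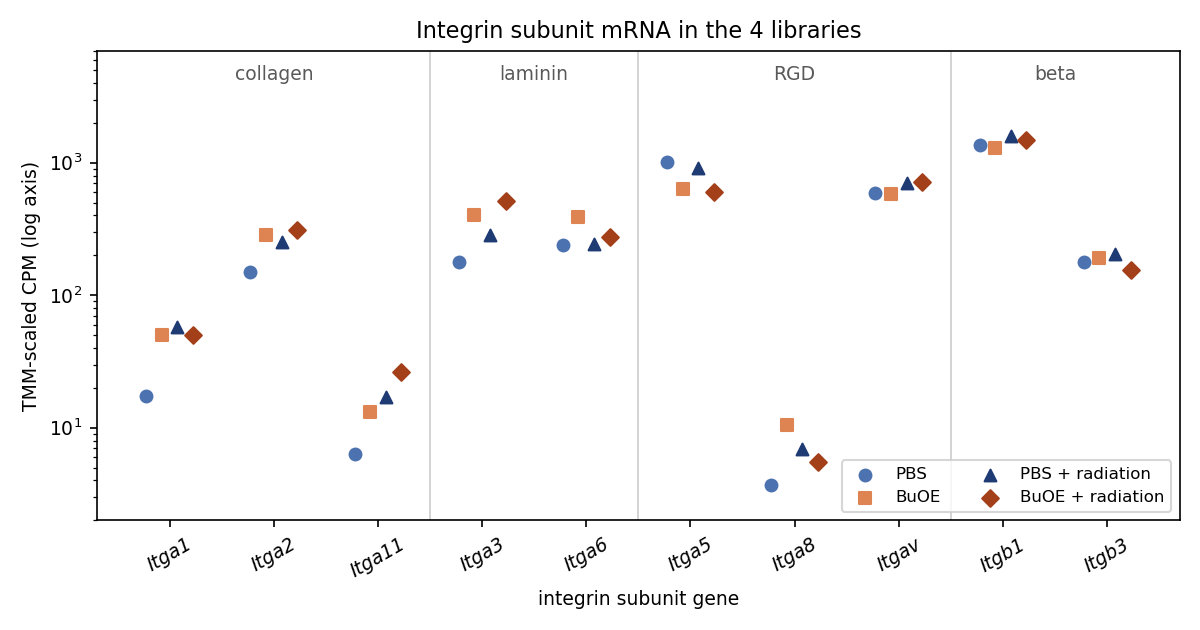
TMM-scaled CPM (log axis) of each integrin subunit gene in the 4 libraries, grouped by the ligand class of the alpha subunit; each point is 1 library. Itgb1 lies between 1302 and 1594 CPM, Itga8 between 3.68 and 10.5 CPM, and the PBS library is lowest for 6 of the 10 genes.

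All 3 collagen receptor subunits were lowest in the PBS library. Itga11, which encodes a receptor subunit for fibrillar collagen on fibroblasts, stood at 6.37 CPM with PBS, 13.2 with BuOE, 17.2 with PBS and radiation and 26.5 with BuOE and radiation. The PBS library was lowest, the irradiated BuOE library highest, and both irradiated libraries lay above both unirradiated ones. The ratio for radiation was 1.42 (1.20 to 1.68) in the PBS arm and 1.00 (0.82 to 1.19) in the BuOE arm. The ratio for BuOE was 1.04 (0.80 to 1.31) without radiation and 0.62 (0.46 to 0.78) after it. Itga11 was the member with the widest range, 4.12-fold over the libraries, and it rested on 187 to 643 reads.

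Itga1, whose product binds collagen IV in basement membranes and is also known from smooth muscle and endothelium, had another pattern. It stood at 17.5 CPM with PBS, 50.5 with BuOE, 57.3 with PBS and radiation and 50.5 with BuOE and radiation. The PBS library was low and the other 3 lay close together. The ratio for radiation was 1.71 (1.57 to 1.85) in the PBS arm, the highest of the 10, and 0.00 (-0.11 to 0.11) in the BuOE arm, where its sign depended on the scaling. BuOE gave 1.52 (1.38 to 1.68) without radiation and -0.18 (-0.29 to -0.08) after it. The annotation places 685 exon bases of Itga1 under a gene model on the same strand, Gm49395, so a part of its reads is uncertain.

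Itga2, which encodes the collagen receptor subunit shared by platelets, epithelium and fibroblasts, stood at 150 CPM with PBS, 284 with BuOE, 254 with PBS and radiation and 313 with BuOE and radiation. Again the PBS library was lowest and the other 3 lay close together. Its ratio for radiation was 0.75 (0.70 to 0.81) in the PBS arm and 0.14 (0.10 to 0.18) in the BuOE arm. For BuOE it was 0.92 (0.86 to 0.97) without radiation and 0.30 (0.26 to 0.35) after it.

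Both laminin receptor subunits, Itga3 and Itga6, were higher in each BuOE library than in either PBS library, as was Itga2. Itga3 stood at 177 CPM with PBS, 402 with BuOE, 283 with PBS and radiation and 519 with BuOE and radiation. The ratio for BuOE was 1.18 (1.14 to 1.23) without radiation and 0.87 (0.83 to 0.91) after it, and that for radiation was 0.68 (0.63 to 0.73) in the PBS arm and 0.37 (0.33 to 0.40) in the BuOE arm. Itga3 and Itga11 were the members higher in both radiation comparisons and both BuOE comparisons by more than 0.3. Itga6, whose product anchors epithelial cells together with that of Itgb4, stood at 240 CPM with PBS, 390 with BuOE, 242 with PBS and radiation and 273 with BuOE and radiation. The BuOE library was highest and the other 3 lay closer together. The ratio for BuOE was 0.70 (0.65 to 0.74) without radiation and 0.17 (0.13 to 0.22) after it. For radiation Itga6 had 0.01 (-0.04 to 0.05) in the PBS arm, where the sign depended on the scaling, and -0.52 (-0.56 to -0.47) in the BuOE arm.

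Among the subunits that bind the RGD sequence of fibronectin and related ligands, Itga5 went the other way. It stood at 1009 CPM with PBS, 638 with BuOE, 918 with PBS and radiation and 603 with BuOE and radiation. Both BuOE libraries lay below both PBS libraries. The ratio for BuOE was -0.66 (-0.69 to -0.64) without radiation and -0.61 (-0.63 to -0.58) after it, the lowest of the 10 members in both comparisons. For radiation Itga5 had -0.14 (-0.16 to -0.12) in the PBS arm and -0.08 (-0.11 to -0.05) in the BuOE arm, where the sign turned with upper-quartile scaling (0.03).

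Itgav, whose product releases TGF-beta from its latent complex with several beta partners, stood at 588 CPM with PBS, 580 with BuOE, 704 with PBS and radiation and 717 with BuOE and radiation. Both irradiated libraries lay above both unirradiated ones, by 0.26 (0.23 to 0.29) in the PBS arm and 0.31 (0.28 to 0.34) in the BuOE arm. Its BuOE ratios were -0.02 (-0.05 to 0.01) and 0.03 (0.00 to 0.05), and their signs depended on the scaling. Itga8, which encodes a nephronectin receptor subunit of smooth muscle and mesenchyme, was the least abundant member. It stood at 3.68 CPM with PBS, 10.5 with BuOE, 6.91 with PBS and radiation and 5.56 with BuOE and radiation, on 108 to 319 reads. The 2 arms had opposite signs, with 0.90 (0.58 to 1.25) for radiation in the PBS arm and -0.91 (-1.22 to -0.63) in the BuOE arm. Without radiation, Itga8 was 2.83-fold higher with BuOE (interval on the log2 scale 1.20 to 1.84). Where strand is not stated, reads of Itga8 cannot be told from those of E030013I19Rik, which covers 372 of its exon bases on the opposite strand, nor those of Itgav from Gm13684 (634 bases).

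Itgb1 varied least of the 10 members. It stood at 1370 CPM with PBS, 1302 with BuOE, 1594 with PBS and radiation and 1497 with BuOE and radiation, a 1.22-fold range. It had 0.22 (0.20 to 0.24) for radiation in the PBS arm and 0.20 (0.18 to 0.22) in the BuOE arm. Its BuOE ratios, -0.07 and -0.09, changed sign between scalings. Itgb3, the partner of Itgav in the vitronectin receptor, stood at 179, 190, 206 and 155 CPM in the same order, and its lowest library was the irradiated BuOE one. Its ratio for radiation was 0.21 (0.15 to 0.26) in the PBS arm and -0.29 (-0.35 to -0.23) in the BuOE arm.

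**Figure D2:**
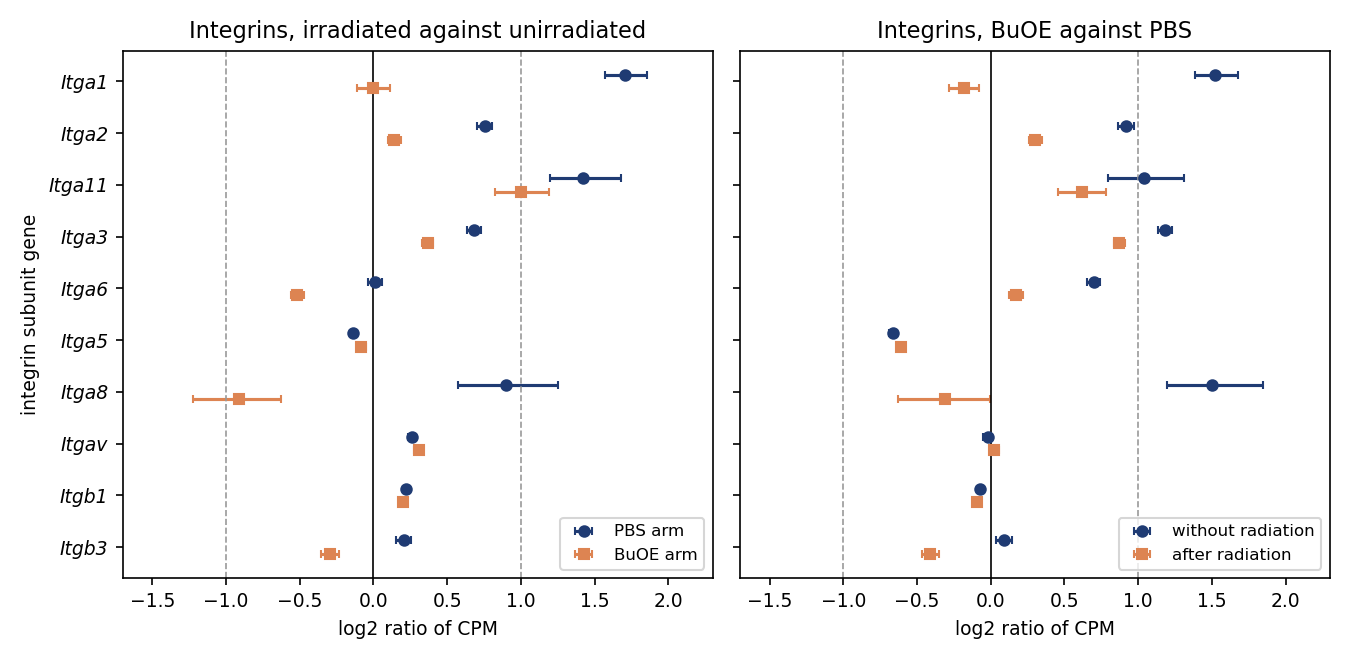
Log2 ratios of CPM for each integrin subunit gene, irradiated against unirradiated (left, by arm) and BuOE against PBS (right, without and after radiation); bars are 95% counting intervals and dashed lines mark 2-fold. Itga1 lies at 1.71 in the PBS arm and at 0.00 in the BuOE arm, while Itga5 lies at -0.66 and -0.61 for BuOE.

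Read over the whole group, 9 of 10 members had a ratio above 0 for radiation in the PBS arm, with a median of 0.47, against 50.4% of all genes and a median of 0.00. Itga1 and Itga11 were at least 2-fold higher, 2 of 10 members against 5.62% of all genes, and no member was 2-fold lower (1.02% of all genes). In the BuOE arm 6 of 10 members lay above 0, with a median of 0.07 against -0.03 for all genes. Itga11 alone was at least 2-fold higher (2.27% of all genes), at the limit itself, and none was 2-fold lower (4.94% of all genes). For BuOE without radiation, 7 of 10 members lay above 0, with a median of 0.81 against -0.01 for all genes. Itga1, Itga3, Itga8 and Itga11 were at least 2-fold higher, 4 of 10 members against 8.72% of all genes, and none was 2-fold lower (4.23% of all genes). After radiation, no member differed 2-fold between BuOE and PBS in either direction, where 3.81% of all genes were higher and 5.92% lower. There 5 of 10 members lay above 0, with a median of -0.03 against -0.07 for all genes.

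The PBS library held the lowest value for 6 of 10 members (Itga1, Itga2, Itga3, Itga6, Itga8 and Itga11), against 30.1% of all genes. Both comparisons with the most 2-fold members contain that library. The difference between the arms (radiation ratio in the BuOE arm minus that in the PBS arm) was below 0 for 8 of 10 members, with a median of -0.46, against 53.0% of all genes and a median of -0.03. It was widest for Itga8 (-1.81, -2.28 to -1.38) and Itga1 (-1.71, -1.89 to -1.53). It was near 0 for Itga5 (0.06), Itgav (0.05) and Itgb1 (-0.02), and these 3 changed sign between scalings. With 4 libraries and 4 conditions no residual spread is left, so this difference has no test.

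**Figure D3:**
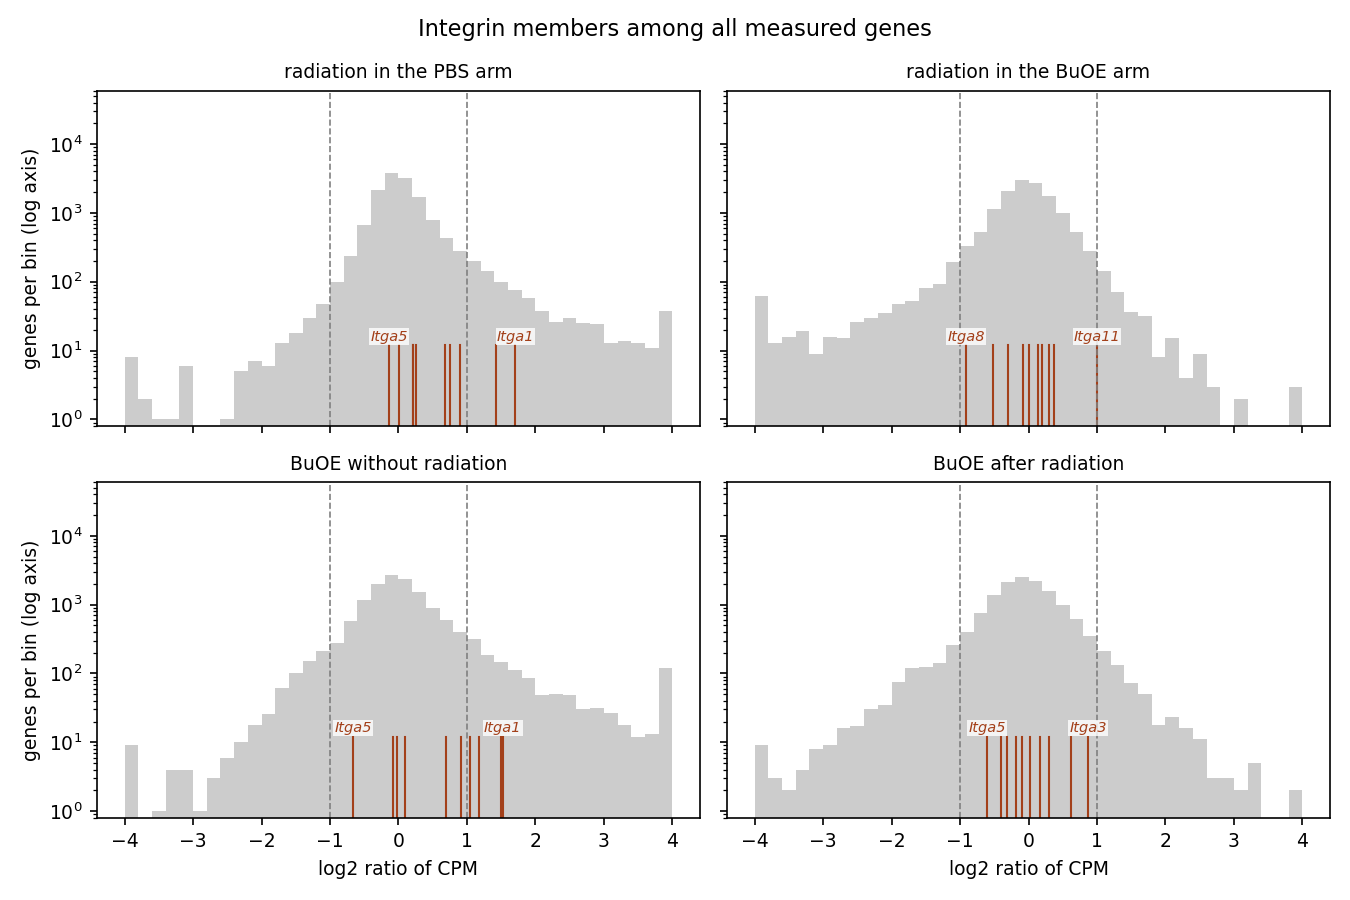
Histograms of the log2 ratios of all 14365 measured genes in each comparison (gene number on a log axis, values beyond 4 placed in the outer bins), with a vertical mark for each integrin member and dashed lines at 2-fold. The marks reach from -0.14 (Itga5) to 1.71 (Itga1) for radiation in the PBS arm, and from -0.61 (Itga5) to 0.87 (Itga3) for BuOE after radiation.

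The only fit with a residual degree of freedom was an additive model of radiation and BuOE over the 4 libraries, which takes any difference between the arms as error. In edgeR's quasi-likelihood test with Benjamini-Hochberg adjustment over all genes, 0 members and 0% of all genes passed an adjusted p of 0.05 for either term. At an unadjusted p under 0.05, 2 of 10 members (Itga3 and Itga11) passed for radiation, beside 1076 of all 14365 genes. For BuOE 4 of 10 (Itga2, Itga3, Itga5 and Itga11) passed, beside 2954 of all 14365 genes. DESeq2, with the same additive design, called no member for radiation at an adjusted p of 0.05, where it called 0.661% of all genes. At an unadjusted p under 0.05, DESeq2 passed 3 of 10 members (Itga1, Itga3 and Itga11) for radiation, beside 652 of all 14365 genes. For BuOE it passed 5 of 10 (Itga2, Itga3, Itga5, Itga6 and Itga11), beside 2172 of all 14365 genes. After adjustment DESeq2 called 6.2% of all genes for BuOE, among them 2 members. They were Itga3, higher by 1.03 on the log2 scale (DESeq2 adjusted p = 1.49e-05; edgeR 0.109), and Itga5, at -0.63 (DESeq2 adjusted p = 0.00603; edgeR 0.201). For Itga11 and radiation the additive log2 ratio was 1.22, with an adjusted p of 0.663 in edgeR and 0.0702 in DESeq2.

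Per kilobase of exon, the 8 alpha members together stood close to Itgb1 in every library. Their summed level was 1.02 times that of Itgb1 with PBS, 1.08 times with BuOE, 0.950 times with PBS and radiation and 0.988 times with BuOE and radiation. This closeness depends on the length used. The longest coding transcript is much shorter than the exon total for Itga6 (4.31 against 9.03 kilobases) and Itgav (7.05 against 10.7). For Itgb1 it is 3.82 against 4.08 kilobases, so the ratio would be higher with that length. The make-up of the alpha sum per kilobase of exon differed between libraries. Itga5 held 60.1% of it with PBS, 37.7% with BuOE, 50.1% with PBS and radiation and 33.7% with BuOE and radiation. Itga3 held 9.10%, 20.5%, 13.4% and 25.1% in the same order, while Itgav kept between 15.7% and 18.4%. The ratio of Itga5 to Itga3 thus stood at 6.60 with PBS, 1.84 with BuOE, 3.75 with PBS and radiation and 1.35 with BuOE and radiation. The laminin receptor subunits Itga3 and Itga6 summed to 16.9% and 20.6% of the alpha total in the PBS libraries without and with radiation, and to 33.1% and 33.4% in the BuOE libraries. The collagen receptor subunits Itga1, Itga2 and Itga11 summed to 6.83% with PBS and to between 11.3% and 14.3% in the other 3 libraries. These shares do not depend on the scaling between libraries. As a share of raw alpha reads without length correction, Itga5 took 46.0% with PBS (45.7 to 46.4, exact Clopper-Pearson interval at 95%, counting error only), 27.0% with BuOE (26.6 to 27.3), 37.0% with PBS and radiation (36.6 to 37.3) and 24.0% with BuOE and radiation (23.7 to 24.4).

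**Figure D4:**
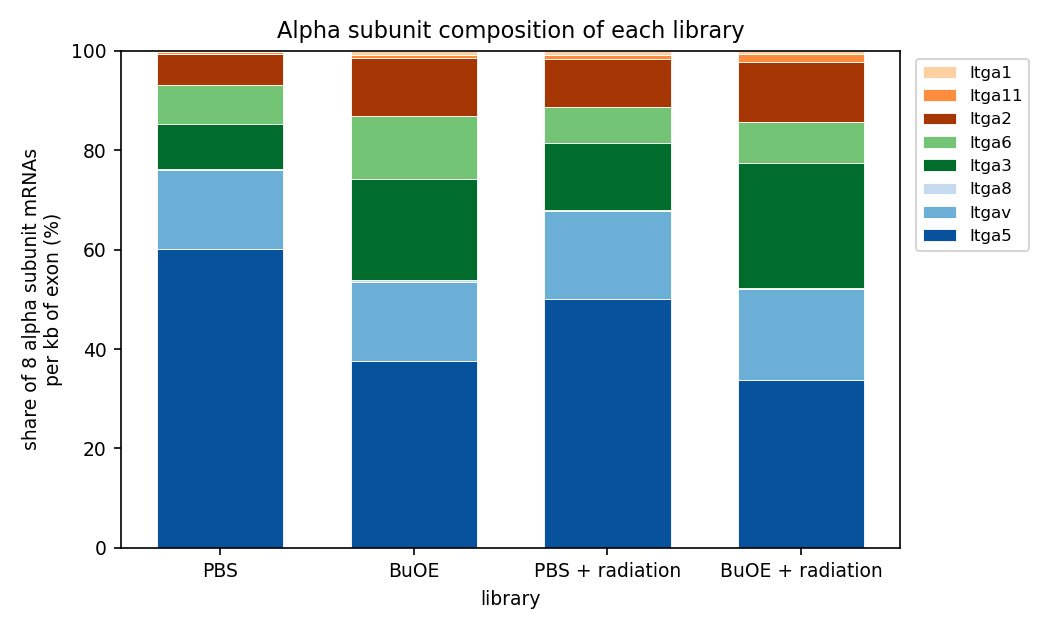
Share of each alpha subunit mRNA in the sum of the 8, per kilobase of exon and in percent, for each library; colours group RGD (blue), laminin (green) and collagen (orange) receptor subunits. Itga5 takes 60.1% with PBS and 33.7% with BuOE and radiation, and Itga3 9.10% and 25.1%.

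The remaining integrin genes were compared as a background. Of 10 other alpha genes 7 were measured, and all 6 other beta genes. For BuOE without radiation, 2 of the 7 alpha genes and 3 of the 6 beta genes were at least 2-fold higher (8.72% of all genes). None was 2-fold lower (4.23% of all genes). Those that were higher are named here. They were Itga7, a laminin receptor subunit of muscle and glia (28.9 CPM with PBS and 117 with BuOE, 2.01), and Itgax, a leukocyte subunit (1.81). The beta genes were Itgb8, the TGF-beta activating partner of Itgav (9.74 and 50.6 CPM, 2.37), the hemidesmosome subunit Itgb4 (186 and 426 CPM, 1.19) and the epithelial subunit Itgb6 (1.03). For radiation in the PBS arm, Itgb8 (1.49) alone of the 13 was 2-fold higher (5.62% of all genes). In the BuOE arm Itga7 (-1.24) and Itgax (-1.57) were 2-fold lower (4.94% of all genes) and Itgb8 had -0.77. Itga4, Itga9, Itga2b, Itgal, Itgam, Itgb2, Itgb5 and Itgb7 did not differ 2-fold in any of the 4 comparisons.

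Genes of the ligands were set beside those of the receptors. Of 9 collagen genes that encode ligands of Itga1, Itga2 and Itga11 products, all 9 lay above 0 for radiation in the PBS arm (median 0.30) and none in the BuOE arm (median -0.70). For BuOE after radiation all 9 lay below 0 and 5 were 2-fold lower, against 5.92% of all genes. Col3a1 stood at 2687 CPM with PBS and radiation and 1012 CPM with BuOE and radiation (-1.41). In that comparison Itga2 had 0.30, Itga11 0.62 and Itga1 -0.18. None of 10 laminin genes differed 2-fold with radiation in either arm. The highest was Lama5, at 0.75 in the PBS arm and 0.54 in the BuOE arm, and the lowest Lama1, at -0.47 and -0.87. For BuOE after radiation 3 of 10 were 2-fold higher, against 3.81% of all genes, led by Lama5 (1.22), with Lama3 (1.00) at the limit itself. Lama5 also had the highest ratio without radiation (1.43). Lamc1, a chain shared by many laminins, had a ratio of 0.02 for BuOE after radiation. Of the 7 measured RGD ligand genes, 4 lay above 0 for radiation in the PBS arm, where fibronectin (Fn1) stood at 5576 against 3182 CPM (0.81), and 2 in the BuOE arm, Fn1 (0.09) and Npnt (0.40). The lowest there was the tenascin gene Tnc (-0.89). For BuOE after radiation 1 of the 7 lay above 0 and 2 were 2-fold lower, against 5.92% of all genes. The median of the 7 was -0.58 in that comparison, and Fbn1 was lowest (-1.26). Npnt, which encodes nephronectin, the ligand of the Itga8 product, had ratios of 0.31 and 0.40 for radiation and -0.96 and -0.87 for BuOE.

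Genes of the adhesion complex behind the beta tail were set beside all genes. Of 25 genes, 9 lay above 0 for radiation in the PBS arm, against 50.4% of all genes. None was past 2-fold there, where 5.62% of all genes were 2-fold higher and 1.02% lower. In the BuOE arm 15 lay above 0, against 46.2% of all genes, and 2 were 2-fold lower, against 4.94%. These were Tln2 (-1.39), a talin, and Fermt1 (-1.04), the epithelial kindlin. None of the 25 was 2-fold higher in that arm (2.27% of all genes). For BuOE without radiation 8 of 25 lay above 0, against 48.8% of all genes, with a median of -0.31. There the adhesion protein gene Zyx stood at 316 against 640 CPM (-1.02), and the filamin gene Flna at 2913 against 4146 CPM (-0.51). The main talin gene Tln1 had -0.56 in that comparison, the vinculin gene Vcl -0.43 and the alpha-actinin gene Actn4 -0.35. Of the 8 genes above 0 there, Lims2 (0.53), Fermt1 (0.50) and Tns1 (0.46) were highest. Zyx alone of the 25 was 2-fold lower, against 4.23% of all genes, and none was 2-fold higher (8.72%). For BuOE after radiation 9 of 25 lay above 0, against 43.8% of all genes, with a median of -0.19. Lims2 alone was 2-fold higher after radiation (3.81% of all genes) and Tln2 alone 2-fold lower (5.92%). Kindlin-2 (Fermt2) had 0.39 and 0.43 for radiation. Of 5 tetraspanins, membrane proteins that associate with integrins, none was 2-fold different in any comparison. For BuOE without radiation Cd82 (0.83) and Cd9 (0.62) were highest and Cd63 (-0.26) was lowest.

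Markers of other cells differed between the same libraries. Counts past 2-fold below stand beside these shares of all genes. For radiation in the PBS arm 5.62% were 2-fold higher and 1.02% lower, and in the BuOE arm 2.27% and 4.94%. For BuOE without radiation 8.72% were higher and 4.23% lower, and after radiation 3.81% and 5.92%. The 8 endothelial markers summed to 425 CPM with PBS, 616 with BuOE, 734 with PBS and radiation and 662 with BuOE and radiation, and 5 of 8 were 2-fold higher for radiation in the PBS arm. The PBS library was lowest in this sum, as it was for Itga1 and 5 other members. For the 8 Schwann cell markers the sums were 112, 447, 269 and 205 CPM, and for 8 neuronal markers 116, 567, 211 and 85.0 CPM. Both sums were highest in the BuOE library, as were the members Itga6 and Itga8. Of the other integrin genes, Itga7, Itgax, Itgal, Itgam, Itgb4, Itgb5, Itgb6 and Itgb8 were also highest there. In each comparison with the PBS library, 7 of 8 Schwann cell and 7 of 8 neuronal markers were 2-fold higher. For radiation in the BuOE arm 3 Schwann cell and 8 neuronal markers were 2-fold lower, and for BuOE after radiation 1 and 7. Sums of the 6 pericyte markers were 370, 589, 445 and 432 CPM, and 4 of 6 were 2-fold higher in each comparison with the PBS library. The 11 epithelial markers came to 5065, 6670, 4393 and 6897 CPM, with both BuOE libraries above both PBS libraries, as for Itga2, Itga3 and Itga6. Krt8 (934, 1050, 789 and 868 CPM), the most abundant of the 11, did not have that order, nor did Krt14 and Krt19. The other markers of the list had it, among them Cldn4, at 506 CPM with PBS and 1438 CPM with BuOE and radiation. The 8 smooth muscle markers came to 1490, 958, 1709 and 1179 CPM, with both BuOE libraries lowest. Acta2 and Tagln, the most abundant of the 8, each had that order, while the list as a whole was split. For BuOE without radiation 3 of 8 were 2-fold higher, among them Myh11 (2.02), and 3 were 2-fold lower, among them Acta2 (-1.34). After radiation 3 were 2-fold higher and 2 lower. The 10 fibroblast markers came to 7519, 6175, 8691 and 5805 CPM, again with both BuOE libraries lowest. Vim and Col1a1, the most abundant of the 10, each had that order, as did Col1a2, Pdgfrb and Fap. Pdgfra, Dcn, Lum, Dpt and Thy1 did not have it, and Dcn stood at 511, 882, 994 and 1324 CPM. For BuOE without radiation 1 of the 10 was 2-fold higher and none lower, and after radiation none was higher and 5 were lower. Macrophage markers ranged from 296 to 457 CPM and adipocyte markers from 167 to 519 CPM, the latter highest with PBS. Of the 6 adipocyte markers 5 were 2-fold lower in each comparison with the PBS library. For radiation in the BuOE arm 4 of them were 2-fold higher, and for BuOE after radiation 2. Of all these markers Adipoq alone was at 0 in a library. The part of these cell types in the integrin ratios was not tested.

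Among 9586 protein-coding genes averaging 10 CPM or more, those whose log2 levels over the 4 libraries lay nearest were looked up for the 3 members with the widest range. Nearest to Itga11 were Bnip3, a mitophagy gene (root mean square distance 0.11 on the log2 scale), the muscle actin-binding gene Synpo2 (0.11) and the VEGF receptor gene Flt1 (0.13). Nearest to Itga1 were Ppp1r16b (0.12), the endothelial transcription factor gene Erg (0.12) and the transcription factor gene Prdm1 (0.13). Nearest to Itga3 were the carboxypeptidase gene Cpe (0.03), which stood at 152, 335, 242 and 462 CPM in the order used above, the receptor kinase gene Mertk (0.06) and Ppp1r3b (0.06). With 4 libraries such likeness is a description only.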

How the data were processed

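Bulk RNA of 4 cultures was analysed, 1 library per condition, with groups taken from the treatment in the labels. The authors deposited raw counts of reads per gene, for which the submitters' processing notes list featureCounts, and also Trim Galore (0.6.4), FastQC, Salmon (1.4.0) and edgeR (4.2.2) without a role and give the build GRCm39. Strand and multi-mapping settings are not given in the sources used here. Symbols were joined by Ensembl ID, and 4675 of 56748 IDs had none (0.689% to 1.29% of counts). Exon lengths and overlaps came from GENCODE M21, promoter sequences from RefSeq (GRCm38.p6); neither is the build of the counts, so no count was placed by coordinate.

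Counts were scaled with TMM (factors 0.972 to 1.05; edgeR 4.0.16, R 4.3.3), and log2 ratios used a prior count of 2. Intervals are exact binomial intervals of the 2 counts at 95%; those of the difference between arms combine 2 of them. The filter kept genes averaging 1 CPM or more. Additive models were fitted with edgeR and with DESeq2 (1.42.0), and the steps were tested on simulated data. The members and lists were chosen with earlier results of these data known. Named genes are the 10 members, other integrin genes of at least 1 CPM, the 2 most expressed genes of each list and those at its ends, of which a part is printed, and the 3 nearest genes of 3 members; Npnt, Zyx, Tln1, Vcl, Fermt1, Fermt2 and Lama5, Cd82 and Cd9 for BuOE, were added after their values were seen where the rule did not name them. Not every gene under this rule is reported here. All 10 fibroblast markers are named, outside this rule, to give the order of each. Alternatives were other scalings, a prior count of 0.5, other filters, DESeq2 and another transcript length.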

Additional observations from a re-analysis of the deposited data

Results flagged for a closer look

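For 3 members a ratio had opposite signs in 2 settings, with counting intervals under TMM scaling that leave out 0. With 1 library per condition this difference was not tested. Itga8 was higher in the irradiated library of the PBS arm and lower in that of the BuOE arm, and likewise higher with BuOE without radiation and lower after it, a difference between the arms of -1.81. Itgb3 had the same signs in both readings, with a difference of -0.50. Itga1 was higher with BuOE without radiation and lower after it, with a difference of -1.71, while its radiation ratio in the BuOE arm was 0.00 (-0.11 to 0.11), an interval that holds 0. The BuOE ratio of Itga8 after radiation had an interval that ended at -0.005, close to 0. With upper-quartile factors the BuOE ratio after radiation was -0.05 for Itga1 and -0.17 for Itga8.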

How the results depend on the processing

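No paired analysis was possible because each group has 1 library, and none could be left out of a ratio of 2. No 2-fold member ratio changed sign under other scalings or a prior count of 0.5, which moved none of the 40 member ratios outside its interval; DESeq2 size factors moved 6, library size alone 18 and upper-quartile factors 19. Library size alone shifted the median of all genes to -0.14 for radiation in the BuOE arm and to -0.10 for BuOE after radiation. With it, 0 members were 2-fold higher and 1 lower for radiation in the BuOE arm, and member medians were -0.042 there, 0.90 for BuOE without radiation and -0.062 after it. Upper-quartile factors gave medians of 0.19 for radiation in the BuOE arm and 0.10 for BuOE after radiation, with 1 member 2-fold higher in the latter. The difference between arms with library size alone was -0.73 for Itga2, -0.43 for Itga3, -0.064 for Itga5, -0.64 for Itga6, -0.074 for Itgav, -0.14 for Itgb1 and -0.62 for Itgb3; with upper-quartile factors it was -0.47, -0.16, 0.20, -0.38, 0.19, 0.13 and -0.35 in the same order, and with DESeq2 size factors 0.018 for Itgb1. Without a filter, genes 2-fold higher and lower numbered 2330 and 1404 (radiation, PBS arm), 2171 and 2009 (radiation, BuOE arm), 2850 and 2373 (BuOE without radiation) and 2343 and 2241 (BuOE after radiation), against 807 and 146, 326 and 709, 1253 and 607, and 548 and 851 at 1 CPM. At 10 CPM they numbered 245 and 43, 118 and 180, 433 and 339, and 245 and 347. The filters change which genes are counted; all 10 members pass 1 CPM, and Itga8 does not pass 10 CPM. In the additive model, DESeq2 called 95 genes for radiation and 890 for BuOE, of which 2 are members, and edgeR without a filter called 283 for BuOE; edgeR called 0 for both terms otherwise. The cause of these differences was not tested. With the longest coding transcript, chosen after seeing the data for the shares, Itga5 held 53.5%, 32.4%, 44.6% and 29.6% of the alpha sum in the order PBS, BuOE, PBS and radiation, BuOE and radiation. Itga8 and Itga11 have the fewest reads and the widest intervals.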
